A study of Homo sapiens with 6 samples.

Results

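The constitutive proteasome subunits are the products of the PSMA, PSMB, PSMC and PSMD genes without PSMB8, PSMB9 and PSMB10, which replace catalytic subunits in the immunoproteasome. By symbol, 34 of the 17891 genes of the deposited table met this rule, 14 of the core particle (7 PSMA and 7 PSMB genes) and 20 of the regulatory particle (6 PSMC and 14 PSMD genes). They were measured by RNA sequencing in T47D, an established cell line from a human breast cancer with luminal features and estrogen receptor. In the PRL group (3 libraries) cells had been transduced with a PLVX-puro lentivirus expressing PRL, which encodes the hormone prolactin, and then selected. In the control group (3 libraries) cells carried the same lentivirus without PRL. The series calls the libraries of a group biological replicates, and nothing in the labels says whether they came from separate transductions or cultures, so p-values measure only the spread between these libraries.

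The proteasome is the protease that degrades ubiquitin-tagged proteins in the cytosol and nucleus. Its core particle is a barrel in which outer rings of alpha subunits control entry and inner rings of beta subunits hold the cutting sites. The regulatory particle sits on the barrel's ends, where a ring of ATPases unfolds substrates and non-ATPase subunits bind ubiquitin, remove it and hold the particle together. Cancer cells depend on this machine, and its chymotrypsin-like site is the target of the drug bortezomib.

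Libraries held 16211146 to 17402348 estimated counts. Levels are given as CPM, counts scaled to the size of the library. PRL had 458, 446 and 444 CPM in the PRL libraries, against 0.203, 0.191 and 0.0624 CPM in the control libraries, in the direction of the labels. The luminal genes ESR1, PGR, GATA3, FOXA1, KRT8, KRT18, KRT19 and EPCAM summed to 15476 to 15954 CPM in the PRL group and 19810 to 25903 CPM in controls. Most of this sum was keratin: KRT8, KRT18, KRT19 and ESR1 were called lower, PGR, GATA3 and FOXA1 higher, and EPCAM did not pass. The summed level of 4 basal or mesenchymal markers (KRT5, KRT14, TP63, VIM) was 5.62 to 6.90 CPM in the PRL group and 2.87 to 5.49 CPM in controls. That of 5 stromal, endothelial and blood markers was 73.6 to 75.7 CPM in the PRL group and 46.5 to 64.4 CPM in controls, nearly all of it COL1A1. The part of these shifts in the results was not tested. Ribosomal protein genes took 10.3% ± 0.285 of counts in the PRL group and 16.6% ± 1.65 in controls (SD, n = 3 each). With those genes left out of the scaling and the test, the same number of subunits, 31, was called lower.

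Transcripts of most subunits were lower in PRL-transduced cells, and how many passed depended on the scaling. Called lower and higher were 31 and 0 with TMM, 25 and 1 with library totals, 25 and 2 on FPKM, and 16 and 3 on TPM. On TPM the log2 fold change was above 0 in PSMD10 and in 9 members that were below 0 with TMM. With TMM scaling, 31 of the 34 members, all of which passed the filter on low counts, fell, none rose and 3 did not pass the test (edgeR's quasi-likelihood test, Benjamini-Hochberg adjusted p under 0.05 over 14076 genes). Over all genes tested 30.5% were called lower and 32.4% higher. In 31 members every PRL library lay below every control library, as in 33.5% of all genes, and in none did they lie above every control, as they did in 35.9% of all genes. The median log2 fold change of the members, PRL over control, was -0.60, against 0.01 for all genes tested. Reductions were moderate: 4 members fell by at least a log2 unit, PSMD1, PSMC3, PSMB6 and PSMB3, where 5.29% of all genes did so. Together the members took 0.547% ± 0.003 of counts in the PRL group and 0.749% ± 0.0428 in controls (SD, n = 3 each). In such bulk samples, fewer cells of a type and less RNA per cell cannot be told apart.

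**Figure D1:**
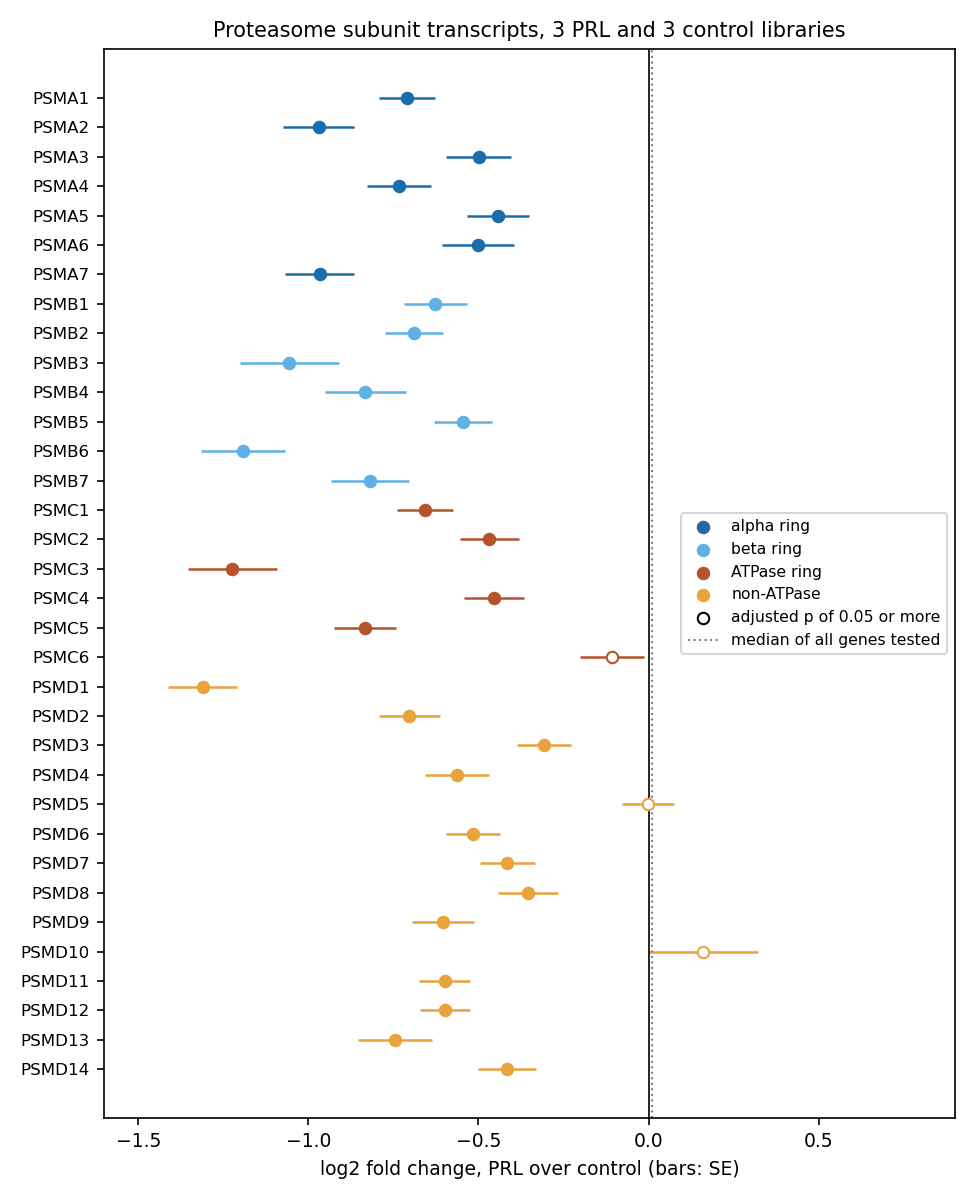
Log2 fold change of each subunit transcript, PRL over control (x axis, bars SE, 3 libraries a group), by ring or class down the y axis. Filled points passed the test, and all 31 of them lie below 0. The open points are PSMC6, PSMD5 and PSMD10.

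Promoters of members are shown because the members moved together. The RefSeq promoter table (GRCh38.p14) listed 35 promoters of 29 members, each from 250 bases before to 50 after a start. Either of the 2 forms of the antioxidant response element, TGACNNNGC and TGAGNNNGC on both strands, was found in 17 of the 35 (48.6%), against 29.1% of all promoters in the table. The first form was in 2 of 14 core promoters (14.3%) and 7 of 21 regulatory ones (33.3%), against 13.3% of all promoters. The second was in 5 of 14 core (35.7%) and 7 of 21 regulatory promoters (33.3%), against 18.3% of all. Matches of the 2 forms did not overlap in any member promoter. NFE2L1, a transcription factor of proteasome genes, binds such elements. A CCAAT box, CCAAT on both strands, was in 16 of the 35 (45.7%), against 34.6% of all promoters. The STAT palindrome TTCNNNGAA on both strands was in 5 (14.3%), against 7.66% of all promoters. Below are the 250 bases before the start, in the direction of transcription, of PSMB3, PSMC3 and PSMD1, with the largest falls among listed members of the core, the ATPases and the non-ATPases, and of PSMC6 and PSMD5, which did not pass the test. Capitals mark matches of the antioxidant element and the CCAAT box. They lie at chr17:38752491-38752740 on the plus strand (PSMB3), chr11:47426440-47426689 on the minus strand (PSMC3), chr2:231056617-231056866 on the plus strand (PSMD1), chr14:52706950-52707199 on the plus strand (PSMC6) and chr9:120842923-120843172 on the minus strand (PSMD5).
PSMB3: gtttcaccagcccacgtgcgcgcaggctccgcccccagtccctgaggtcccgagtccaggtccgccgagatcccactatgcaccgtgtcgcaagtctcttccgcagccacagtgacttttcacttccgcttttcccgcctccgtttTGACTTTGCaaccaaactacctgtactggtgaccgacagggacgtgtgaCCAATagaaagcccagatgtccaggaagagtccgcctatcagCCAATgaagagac
PSMC3: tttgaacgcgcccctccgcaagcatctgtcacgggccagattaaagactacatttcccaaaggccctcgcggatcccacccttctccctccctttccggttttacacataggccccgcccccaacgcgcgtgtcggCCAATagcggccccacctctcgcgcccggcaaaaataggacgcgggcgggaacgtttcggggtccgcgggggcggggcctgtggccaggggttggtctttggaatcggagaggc
PSMD1: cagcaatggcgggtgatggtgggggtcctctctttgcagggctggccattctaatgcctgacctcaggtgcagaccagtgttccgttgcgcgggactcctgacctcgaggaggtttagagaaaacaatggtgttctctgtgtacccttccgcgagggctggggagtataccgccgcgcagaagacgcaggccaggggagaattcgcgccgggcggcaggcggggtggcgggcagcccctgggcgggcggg
PSMC6: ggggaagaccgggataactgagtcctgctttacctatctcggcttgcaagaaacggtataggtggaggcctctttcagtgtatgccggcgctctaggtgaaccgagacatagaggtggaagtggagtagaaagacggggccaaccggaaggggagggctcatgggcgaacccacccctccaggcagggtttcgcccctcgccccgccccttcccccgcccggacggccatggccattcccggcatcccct
PSMD5: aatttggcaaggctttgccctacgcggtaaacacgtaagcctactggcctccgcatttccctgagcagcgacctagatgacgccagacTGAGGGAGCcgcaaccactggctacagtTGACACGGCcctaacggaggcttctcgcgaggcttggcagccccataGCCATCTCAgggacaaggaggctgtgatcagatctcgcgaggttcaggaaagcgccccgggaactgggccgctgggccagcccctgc
In these stretches the antioxidant element matched 1 time in PSMB3 and 3 times in PSMD5 (1 of the first form, 2 of the second), and in none of the other stretches. PSMD1 had both forms within the 50 bases after its start, which are not printed, and so counts among the 17 promoters with the element, while PSMC6 had neither form in the whole window. The CCAAT box matched 2 times in PSMB3 and 1 time in PSMC3. No CCAAT box was found in the whole windows of PSMD1, PSMC6 and PSMD5.

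All 7 genes of the alpha ring fell, by 0.44 to 0.97 on the log2 scale. PSMA2 (NCBI gene 5683, chromosome 7, 42916857 to 42932223, minus strand, GRCh38) had the largest fall of the ring, with 159.8, 165 and 159.6 CPM in PRL libraries, against 371, 285 and 291 CPM in control libraries. The 3 PRL libraries differed little, and all lay far below the lowest control. PSMA2 fell by 48.9%, which is -0.97 on the log2 scale (SE 0.10, edgeR adjusted p = 2.6e-05). PSMA7 was next, at 164 ± 4.39 CPM in the PRL group and 319.8 ± 46.4 CPM in controls (log2 fold change -0.97, edgeR adjusted p = 2.4e-05). The smallest fall was that of PSMA5, with 68.3, 69.0 and 73.2 CPM in PRL libraries and 101, 83.1 and 102 CPM in control libraries (log2 fold change -0.44, edgeR adjusted p = 0.0017). The lowest PSMA5 control, replicate 2, was still above every PRL library. PSMA1 (-0.71), PSMA4 (-0.73), PSMA3 (-0.50) and PSMA6 (-0.50) lay between in log2 fold change.

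All 7 genes of the beta ring fell too, and the 3 catalytic subunits differed in size. PSMB6, the caspase-like subunit (NCBI gene 5694, chromosome 17, 4796144 to 4798503, plus strand), had 78.5, 81.3 and 82.5 CPM in PRL libraries, against 227, 170.2 and 158 CPM in control libraries. Even the lowest control held a level well above all PRL libraries. PSMB6 fell by 56.3% (log2 fold change -1.19, SE 0.12, edgeR adjusted p = 2.0e-05). PSMB7, the trypsin-like subunit, had 285, 297 and 312 CPM in PRL libraries and 627, 482 and 467 CPM in control libraries (log2 fold change -0.82, SE 0.11, edgeR adjusted p = 1.4e-04). PSMB5, the chymotrypsin-like subunit, had 73.6, 74.3 and 80.4 CPM in PRL libraries and 119, 101 and 114 CPM in control libraries (log2 fold change -0.55, SE 0.08, edgeR adjusted p = 2.6e-04). For both genes the groups did not overlap, and within the beta ring PSMB5 had the smallest fall and PSMB6 the largest. Among the beta subunits without a cutting site, PSMB3 had 248, 271 and 265 CPM in PRL libraries and 686, 509.7 and 433 CPM in control libraries (log2 fold change -1.06, SE 0.15, edgeR adjusted p = 1.2e-04). Its controls were widely spread, with replicate 1 highest. PSMB4 (-0.83), PSMB2 (-0.69) and PSMB1 (-0.63) also fell, as log2 fold changes.

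Of the 6 ATPases that form the unfolding ring, 5 fell and PSMC6 did not pass. PSMC3 (NCBI gene 5702, chromosome 11, 47418769 to 47426473, minus strand) had 209.9, 210.0 and 224 CPM in PRL libraries, against 622, 457 and 424 CPM in control libraries. The groups stood far apart, with control replicate 1 above the other two. PSMC3 fell by 57.2% (log2 fold change -1.22, SE 0.13, edgeR adjusted p = 2.6e-05). PSMC5 (-0.83), PSMC1 (-0.66), PSMC2 (-0.47) and PSMC4 (-0.45) followed in log2 fold change, with edgeR adjusted p from 3.1e-05 to 0.0012. PSMC6 had 80.3, 81.5 and 82.7 CPM in PRL libraries and 92.9, 75.5 and 95.3 CPM in control libraries, so that the PRL libraries lay inside the range of the controls. Its log2 fold change was -0.11 (SE 0.09, edgeR adjusted p = 0.33), and without control replicate 2 it was -0.21 (edgeR adjusted p = 0.0232), which passes. Reads of PSMC1 are less certain than those of the other ATPases, since NRDE2 on the opposite strand overlaps 75.8% of its annotated exon bases, the use of strand is not given in the sources used here, and GENCODE 29 names 13 PSMC1 pseudogenes.

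The 14 PSMD genes include 11 subunits of the finished particle, and all 11 fell. PSMD1, a large scaffold subunit at the base (NCBI gene 5707, chromosome 2, 231056864 to 231172827, plus strand), had 65.9, 69.4 and 67.4 CPM in PRL libraries, against 194, 160.4 and 148 CPM in control libraries. No other member fell as far: PSMD1 fell by 59.7% (log2 fold change -1.31, SE 0.10, edgeR adjusted p = 2.8e-06). PSMD2, the other large scaffold, which docks ubiquitin shuttle proteins, had 449.7, 451 and 446 CPM in PRL libraries and 808, 683 and 702 CPM in control libraries (log2 fold change -0.70, SE 0.09, edgeR adjusted p = 7.5e-05). PSMD4, a ubiquitin receptor, had 225, 217 and 229 CPM in PRL libraries and 375, 299 and 317 CPM in control libraries (log2 fold change -0.56, SE 0.09, edgeR adjusted p = 4.3e-04). PSMD14, the metalloprotease that strips ubiquitin from substrates, had 46.7, 49.7 and 50.6 CPM in PRL libraries and 68.3, 58.7 and 69.2 CPM in control libraries (log2 fold change -0.42, SE 0.08, edgeR adjusted p = 0.00155). In all 4 the groups were separate, most narrowly in PSMD14. The lid scaffold subunits PSMD13 (-0.74), PSMD11 (-0.60), PSMD12 (-0.60), PSMD6 (-0.52), PSMD8 (-0.35) and PSMD3 (-0.31), and PSMD7 (-0.42), the partner of PSMD14, gave smaller log2 fold changes than PSMD1.

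The other 3 PSMD genes, PSMD5, PSMD9 and PSMD10, encode chaperones that help to assemble the base and are absent from the finished proteasome. PSMD9 fell, with 36.5, 40.2 and 38.9 CPM in PRL libraries and 63.5, 60.4 and 51.9 CPM in control libraries (log2 fold change -0.61, SE 0.09, edgeR adjusted p = 2.3e-04). PSMD5 had 82.2, 76.6 and 81.9 CPM in PRL libraries and 77.1, 77.4 and 86.4 CPM in control libraries, with the ranges overlapping (log2 fold change -0.0011, SE 0.08, edgeR adjusted p = 0.99). PSMD10, also known as gankyrin, had 23.3, 22.6 and 24.5 CPM in PRL libraries and 19.9, 15.9 and 27.1 CPM in control libraries. Its controls spanned the PRL libraries on both sides (log2 fold change 0.16, SE 0.16, edgeR adjusted p = 0.41). Without control replicate 3 the log2 fold change of PSMD10 was 0.41 (edgeR adjusted p = 0.0047), a rise past the threshold, and without control replicate 2 it was -0.012.

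The spread between libraries was shared by many members. The median member lay 0.63, 0.60 and 0.58 below the control mean on the log2 scale in PRL replicates 1 to 3. In control replicate 1 it lay 0.16 above that mean, in control replicate 2 at -0.12 and in control replicate 3 at -0.03. Control replicate 1 was the highest control in 26 of 34 members, and control replicate 2 the lowest in 23. The median coefficient of variation of the members was 2.62% in the PRL group and 11.3% in controls. Without control replicate 1, all 14 core and 17 regulatory members were still called lower.

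**Figure D2:**
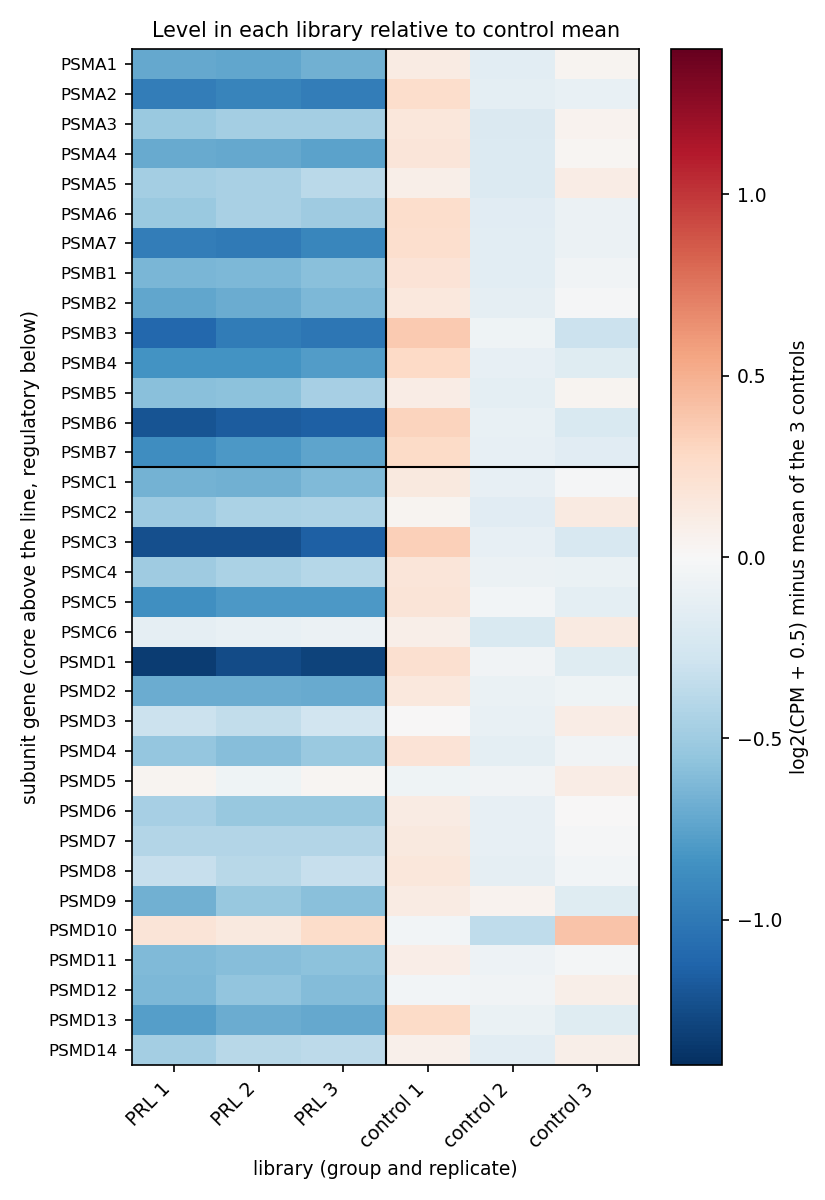
Level of each subunit transcript in each library (columns, PRL replicates left of control replicates), as log2(CPM + 0.5) minus the mean of the 3 controls (colour). The PRL columns are blue in all rows but PSMD5 and PSMD10, light in rows such as PSMD3 and PSMD8 and palest in PSMC6. Among controls replicate 1 is highest in 26 of 34 rows.

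Core and regulatory particles both fell, the core by somewhat more in counts, FPKM and TPM, though not with a length trend offset. All 14 core members and 17 of 20 regulatory members were called lower (background 30.5%), with a median log2 fold change of -0.72 for the core and -0.54 for the regulatory particle. Without the assembly chaperones PSMD5, PSMD9 and PSMD10, 16 of 17 regulatory members were called lower, with a median log2 fold change of -0.56. Summed over members, the core had 2376 ± 50.2 CPM in the PRL group and 4121 ± 631 CPM in controls, and the regulatory particle 2631 ± 32.6 CPM in the PRL group and 4098 ± 405 CPM in controls (SD, n = 3 each). These PRL sums of TMM-scaled CPM came to 57.6% of control for the core and 64.2% for the regulatory particle. Summed TPM fell less, to 78.3% of control for the core and 86.9% for the regulatory particle. In deposited TPM, which divides by length, the core share of summed proteasome TPM was 63.2% ± 0.328 in the PRL group and 65.6% ± 1.14 in controls, a difference of -2.37 percentage points. The share was 62.9%, 63.5% and 63.3% in PRL libraries and 66.9%, 65.2% and 64.7% in control libraries, so that the groups did not overlap. Without control replicate 1 the difference was -1.73. Members were chosen with results known, and no p is given for these summed values.

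The gap between the particles in median log2 fold change depended on how transcript length was handled. Length, taken from the ratio of deposited counts to FPKM, had a median of 0.954 kb in core members, 1.69 kb in regulatory members and 3.002 kb in all genes tested. Short transcripts were lower in the PRL group in general: in the shortest length decile of all genes, which holds 11 of the 14 core members, the median log2 fold change was -0.51 and 61.7% of genes were called lower. In the next decile, which holds 10 of the 20 regulatory members, these values were -0.24 and 45.6%. With each library's trend on length entered as an offset, 10 core and 17 regulatory members were called lower, where 31.1% of all genes were. The median log2 fold change then was -0.41 for the core and -0.46 for the regulatory particle, so that their order turned round (core minus regulatory median log2 fold change 0.051, against -0.18 without the offset). PSMA3 (-0.035), PSMA6 (-0.083), PSMB1 (-0.11) and PSMB5 (-0.15) did not pass in that fit, with edgeR adjusted p from 0.0903 to 0.718. PSMD1 (-1.42), PSMC3 (-1.08), PSMB2 (-0.82), PSMD2 (-0.81) and PSMA2 (-0.78) were the 5 with the largest log2 falls. PSMB6 fell by 0.62 on the log2 scale there.

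**Figure D3:**
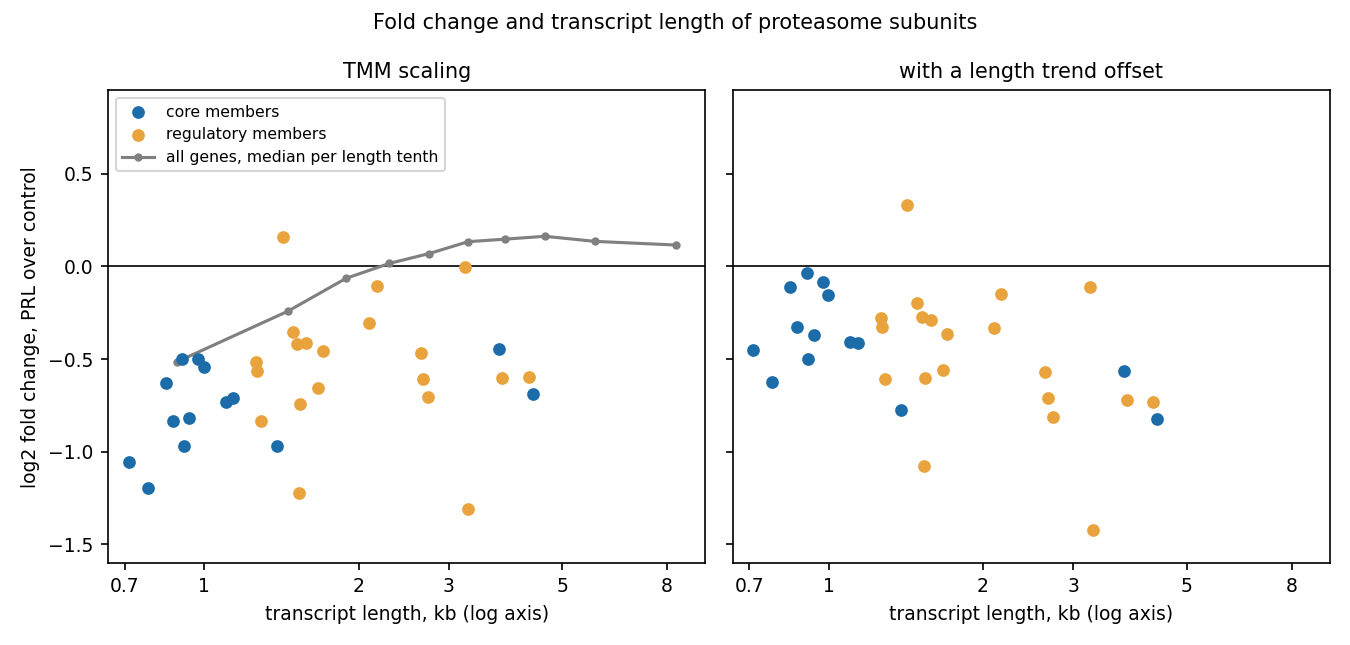
Log2 fold change, PRL over control (y axis), against transcript length in kb (log x axis) for core and regulatory members, with TMM scaling (left) and with a length trend offset (right). The grey line in the left panel gives the median of all genes in each length decile, -0.51 in the shortest, and 11 of the 14 core members belong to that decile.

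The order of subunit levels was nearly the same in both groups. In TPM the mean level ran from 25.99 TPM for PSMD9 to 815 TPM for PSMB4 in the PRL group and from 19.6 TPM for PSMD10 to 1051 TPM for PSMB4 in controls. PSMD9 and PSMD10 are chaperones absent from the finished particle, which holds its subunits in fixed numbers. Among its subunits the lowest was PSMD12 in the PRL group (32.0 TPM) and PSMA5 in controls (33.5 TPM). PSMB4 (815 ± 10.3 TPM in the PRL group, 1051 ± 63.7 TPM in controls), PSMB3 (661 ± 20.7 TPM in the PRL group, 992 ± 129 TPM in controls) and PSMB7 (575 ± 12.8 TPM in the PRL group, 735 ± 37.7 TPM in controls) led in both groups (SD, n = 3 each). Across the 34 members, Spearman's rho between the mean TPM of the groups was 0.978, as a description over genes that share libraries. PSMD1 changed place most, to rank 30 in the PRL group, against rank 24 in controls, with 37.3 ± 0.88 TPM in the PRL group and 67.1 ± 2.60 TPM in controls. PSMC3 was at rank 11 in the PRL group and rank 6 in controls.

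TPM values gave smaller reductions, while the median of all genes was 0.39 higher on that scale in the PRL group (limma on log2(TPM + 1)). All PRL libraries lay below all controls in TPM for 10 core and 10 regulatory members, where 12.4% of all genes did. They lay above all controls for PSMC6, PSMD5 and PSMD10, as for 59.3% of all genes. The fit on TPM called 16 members lower and 3 higher, those on FPKM 25 lower and 2 higher (median of all genes 0.20), and library totals 25 lower and 1 higher (median of all genes 0.26). Of all genes called, 83.8% were higher on TPM, 69.9% on FPKM and 72.9% with library totals, against 51.4% with TMM scaling. On TPM the log2 fold changes of PSMA5, PSMC2, PSMC4, PSMC6, PSMD3, PSMD5, PSMD7, PSMD8, PSMD10 and PSMD14 were above 0. Relative to those medians the members were low throughout: in every setting 32 to 34 of the 34 lay under the median of all genes.

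**Figure D4:**
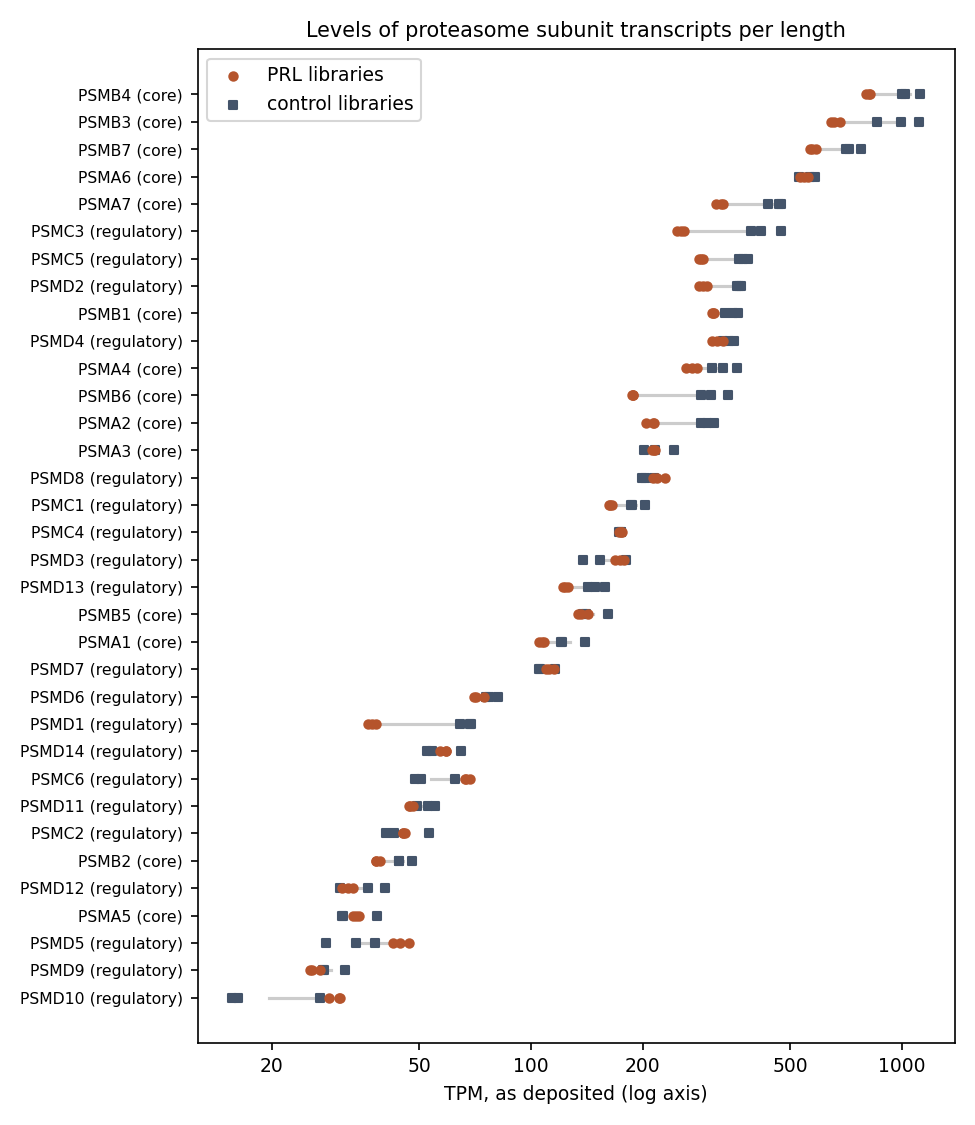
Deposited TPM (log x axis) of each subunit transcript in every library, PRL libraries as circles and control libraries as squares, ordered by the control mean. PSMB4 is highest in both groups, and PSMD1 and PSMC3 show wide gaps between groups.

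Of the 3 catalytic subunits of the immunoproteasome, 2 rose, none fell and 1 did not pass, where 32.4% of all genes rose and 30.5% fell. PSMB8, which takes the place of PSMB5, had 139, 140.1 and 145 CPM in PRL libraries and 43.6, 38.0 and 34.1 CPM in control libraries (log2 fold change 1.88, SE 0.09, edgeR adjusted p = 1.3e-07). PSMB9, which takes the place of PSMB6, rose by 1.43 on the log2 scale (edgeR adjusted p = 4.2e-07), and PSMB10, the counterpart of PSMB7, did not pass (-0.12, edgeR adjusted p = 0.50). In TPM, PSMB8 made up 61.9% ± 0.691 of the PSMB8 and PSMB5 pair in the PRL group and 23.6% ± 2.45 in controls. PSMB9 made up 38.2% ± 0.231 of the PSMB9 and PSMB6 pair in the PRL group and 9.21% ± 0.90 in controls. PSMB10 made up 5.82% ± 0.433 of the PSMB10 and PSMB7 pair in the PRL group and 3.67% ± 0.35 in controls (SD, n = 3 each). These shares are of transcripts, and incorporation into particles was not measured.

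**Figure D5:**
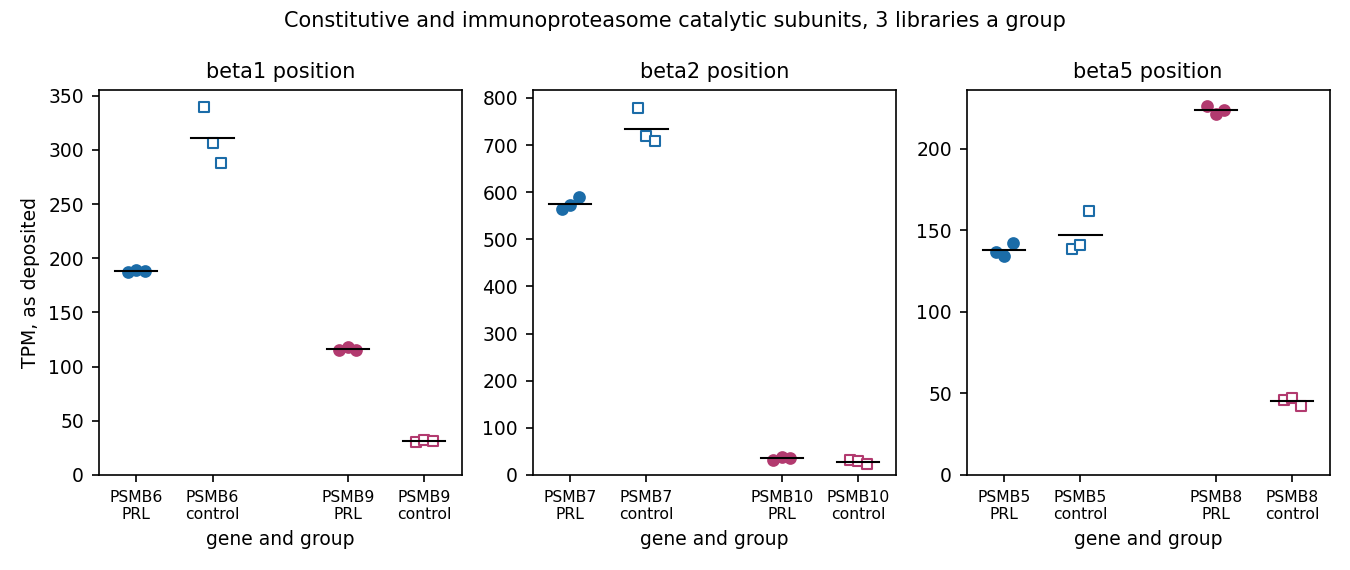
Deposited TPM (y axis) of the catalytic subunits and their immunoproteasome counterparts in every library, filled circles PRL and open squares control, with group means as lines. PSMB8 exceeds PSMB5 in all 3 PRL libraries and in none of the controls, while PSMB6 and PSMB7 stay above PSMB9 and PSMB10 in both groups.

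Among the activators and inhibitors, 2 of 6 rose, a share near the 32.4% of all genes, and 4 fell, where 30.5% of all genes did. PSME1 and PSME2, the interferon-inducible activator that caps the core, rose, with PSME1 at 203, 209 and 211 CPM in PRL libraries and 151, 129 and 122 CPM in control libraries (log2 fold change 0.63, edgeR adjusted p = 1.4e-04) and PSME2 by 0.36 on the log2 scale (edgeR adjusted p = 0.0082). PSME3, the related nuclear activator, fell to 209 ± 3.35 CPM in the PRL group, against 338 ± 12.2 CPM in controls (log2 fold change -0.69, edgeR adjusted p = 2.1e-05). ECPAS, an adaptor of the proteasome, fell as well (-0.59, edgeR adjusted p = 5.8e-05), though not in limma on TPM (adjusted p = 0.139), where the median of all genes was higher. The inhibitor PSMF1 (-0.20) passed only just, with an edgeR adjusted p of 0.050.

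Of 7 assembly genes, 5 fell and 1 rose, against 30.5% lower and 32.4% higher over all genes tested. The 5 that fell, POMP and PSMG1 to PSMG4, act in assembly of the core. Transcripts of PSMG1 to PSMG4 were short (0.853 to 0.995 kb), and in the shortest length decile of all genes 61.7% were called lower. POMP, the chaperone of core maturation, had 84.2, 90.4 and 96.0 CPM in PRL libraries and 245, 178 and 173 CPM in control libraries, with no overlap (log2 fold change -1.14, SE 0.13, edgeR adjusted p = 3.4e-05). PSMG1 (-0.75) and PSMG4 (-0.72), chaperones of the alpha ring, fell, with edgeR adjusted p of 2.6e-05 and 4.5e-05. AKIRIN2, which helps proteasomes into the nucleus, rose (0.29, edgeR adjusted p = 0.0157). Of 5 subunits and partners with other symbols, 2 fell and 1 rose, shares near those of all genes (30.5% lower, 32.4% higher). The lid peptide SEM1 fell to 44.2 ± 2.96 CPM in the PRL group, against 93.7 ± 16.7 CPM in controls (log2 fold change -1.08, edgeR adjusted p = 3.2e-05), and the ubiquitin receptor ADRM1 fell too (-0.50, edgeR adjusted p = 5.5e-04). UBE3C, a ligase bound to the proteasome, rose (0.47, edgeR adjusted p = 0.0030). The deubiquitinases USP14 (0.071) and UCHL5 (0.18) did not pass.

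Genes that encode, activate or degrade NRF1, the product of NFE2L1, or its relative were higher while the subunits were lower. As background, NRF1 is an endoplasmic reticulum protein that is cleaved and moves to the nucleus when proteasome activity is short, and it then raises proteasome genes. All 6 listed genes rose, where 32.4% of all genes did. Their transcripts had a median length of 3.81 kb (2.38 to 10.6 kb), against 3.002 kb in all genes tested. In the length decile of all genes with a median of 3.86 kb, the median log2 fold change was 0.15. NFE2L1 had 345, 344 and 333 CPM in PRL libraries and 186, 207 and 227 CPM in control libraries, with no overlap (log2 fold change 0.72, SE 0.09, edgeR adjusted p = 5.5e-05). SYVN1, a ubiquitin ligase (1.05, edgeR adjusted p = 1.9e-05) and its partner SEL1L (0.62, edgeR adjusted p = 2.3e-04), which send NRF1 to degradation, rose as well. The protease DDI2 (0.32) and the deglycosylase NGLY1 (0.25), which activate NRF1, and the related factor NFE2L2 (0.70) made up the list. Protein levels and processing of NRF1 were not measured.

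Ubiquitin genes and the factors that feed the proteasome were mixed: 8 of 14 fell, 1 rose and 5 did not pass, where 30.5% of all genes fell and 32.4% rose. RPS27A, which encodes ubiquitin joined to a ribosomal protein, fell to 750.1 ± 42.1 CPM in the PRL group, against 1678 ± 306 CPM in controls (log2 fold change -1.16, edgeR adjusted p = 3.0e-05). UFD1, a cofactor of the segregase VCP, fell by 0.88 on the log2 scale (edgeR adjusted p = 2.9e-05). The polyubiquitin gene UBB fell as well (-0.54, edgeR adjusted p = 7.4e-04).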

How the data were processed

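The 6 T47D libraries were made from Trizol-extracted RNA by Illumina's protocol, as the labels state. Named in the submitters' processing notes are the build GRCh38.p13 and the aligners Bowtie2 2.3.4.3 and HISAT2 2.1.0. The strand setting, the counting tool, the annotation and the RNA selection are stated in none of the sources used here. The authors deposited an estimated count (expected count, not whole for many genes), an FPKM and a TPM value per gene and library, per the file headers. FPKM and TPM are length-scaled by the authors. The deposited estimated counts were rounded to whole numbers. The authors' group means were not used.

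Groups were taken from the sample titles. The test was edgeR 4.0.16 (R 4.3.3) by quasi-likelihood with TMM scaling and the group as the only term, on 14076 genes left by edgeR's filter, with Benjamini-Hochberg adjustment. SE is the absolute log2 fold change over the root of F. CPM values are TMM-scaled. Alternatives used DESeq2 1.42.0, limma 3.58.1 (voom, and a trend on log2 FPKM or TPM) and smooth trends on length or GC content (mgcv 1.9.3). Coordinates and pseudogene names are from GENCODE 29, matched through NCBI gene ID, and promoters from RefSeq. The fits were tested on simulated data.

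Members and pathway lists were chosen with earlier results of these data known. Named are all members, in full the catalytic subunits, PSMD2, PSMD4, PSMD14, the extremes of each class and those not passing, and the 3 genes of smallest adjusted p in each pathway list, where some results are not reported here. Genes named outside this rule, such as PSMA7, PSMD9, PSME2, PSMG2, PSMG3, AKIRIN2, PSMF1, USP14, UCHL5, DDI2, NGLY1, NFE2L2 and UBB, were chosen after their values were seen.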

Additional observations from a re-analysis of the deposited data

How the results depend on the processing

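The fall of both particles kept its direction under every alternative, and its size and calls depended on the scaling. The median log2 fold change of the core (-0.72) became -0.46 with library totals, -0.46 on FPKM, -0.27 on TPM with a pseudocount of 1 or 0.1, -0.41 with the length offset and -0.40 with length and GC. That of the regulatory particle (-0.54) became -0.28, -0.31, -0.11 and -0.11, and -0.44 with length and GC. The core minus regulatory median log2 fold change turned to 0.051 and 0.034 with the length and the length and GC offsets. Its SD between replicates without an offset was 0.050, so the change of sign was not resolved. Regulatory members called higher numbered 1 with library totals, 2 on FPKM, 3 and 3 on TPM and 1 with length and GC, and those called lower 6 and 6 on TPM. Over all genes, 2394 were called lower with library totals, 2356 on FPKM and 1375 and 1363 on TPM, and 7118 and 7048 higher on TPM.

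Leaving out 1 library gave a core median of -0.81 to -0.64, a regulatory median of -0.58 to -0.45, a difference of -0.22 to -0.17, a difference in the core share of summed proteasome TPM of -2.82 to -1.73 percentage points, 14 core and 17 to 18 regulatory members lower, 0 to 1 regulatory members higher, and 3653 to 4688 genes lower and 3929 to 5264 higher. In all these runs no core member was called higher.

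Of 714 values of single members under alternatives, 644 kept direction and call, 35 lost the call, 6 gained one and 29 changed sign. On TPM with a pseudocount of 1 and 0.1 the log2 fold changes of members that changed sign were 0.016 and 0.016 (PSMA5), 0.0034 and 0.0036 (PSMC2), 0.0033 and 0.0033 (PSMC4), 0.32 and 0.33 (PSMC6), 0.15 and 0.15 (PSMD3), 0.42 and 0.44 (PSMD5), 0.042 and 0.042 (PSMD7), 0.10 and 0.10 (PSMD8) and 0.039 and 0.039 (PSMD14). PSMB10, which is not a member and not among the 714 values, changed sign too, to 0.34 and 0.35. PSMC6 was at 0.15 with library totals and 0.13 on FPKM. PSMB10 was at 0.14 in both of these, -0.25 to 0.062 when 1 library was left out, 0.33 with the length offset and 0.29 with length and GC. PSMD5 was at 0.049 with the upper quartile, 0.25 with library totals, 0.015 with the stricter filter, 8.9e-05 in limma-voom, 0.23 on FPKM and -0.032 to 0.072 when 1 library was left out. PSMD10 was at -0.012 to 0.41 when 1 library was left out.

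The replicate numbers did not pair the libraries: same-numbered libraries deviated from their group means with correlations of -0.11, 0.04 and -0.06. With the replicate block, 14 core and 17 regulatory members were called lower, and PSMD5 was at 0.00018. The runs with length and GC and with proteasome genes left out of the scaling were chosen after seeing the data. The cause of these differences was not tested, beyond the shift of the median of all genes that each scaling carries. The lowest level of a member was 15.9 CPM, that of PSMD10 in control replicate 2, and an effect of depth was not tested.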
